A study of Homo sapiens with 4 samples.

Results

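The amino acid transporter genes described here are those of the solute carrier families SLC1A, SLC3A, SLC7A, SLC36A, SLC38A and SLC43A. They were picked by symbol from a table of gene levels, with earlier results of these data known. The table held 40 of them among 57905 gene identifiers, and 26 had a mean of at least 1 FPKM over the libraries and were tested. FPKM counts sequenced fragments scaled to gene length and library size, so levels of different genes can be compared per length. Polyadenylated RNA was sequenced from cells labelled MG63, an established human osteosarcoma line, grown in serum-containing medium. A pair of libraries came from cells given a control siRNA and another pair from cells given an siRNA against KLF11, both collected 48 hours after transfection. KLF11 encodes a zinc finger transcription factor, and the series title ties its low level to stem cell-like sarcoma cells and to YAP, a coactivator that works through TEAD factors. The sources used here name no siRNA sequence and do not say that the replicates were separate cultures, so every p-value below reflects the scatter of these 4 libraries, and that scatter may be technical.

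Cells take up amino acids through carriers that differ in substrate and driving force. Members of SLC7A fall into cationic carriers, which work alone, and light chains, which reach the cell surface only when joined to a heavy chain of SLC3A. The light chains are exchangers: they let 1 amino acid in for another that leaves, and so depend on carriers such as SLC1A5 and the sodium-coupled SLC38 proteins to keep the inner pool filled. Imported leucine, arginine and glutamine feed protein synthesis and the growth kinase complex mTORC1, and imported cystine feeds glutathione. Several of these genes are known targets of ATF4, a transcription factor made when amino acids run short.

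The siRNA target was lower in the libraries labelled for its knockdown. KLF11 was at 12.3 and 12.4 FPKM with control siRNA and at 5.49 and 6.74 FPKM with KLF11 siRNA (log2 change -0.92, SE 0.139, limma adjusted p = 0.00951), which did not pass without control siRNA replicate 1 or 2 (adjusted p = 0.106 and 0.107). The libraries' FPKM summed to between 577849 and 604498, and with no counts in the table the read depth is unknown. The markers matched the label only in part. Of 10 osteoblast and osteosarcoma markers 6 had a mean of at least 1 FPKM. SPARC was between 637 and 772 FPKM, COL1A2 between 115 and 136 FPKM and ALPL between 79.2 and 106 FPKM, while RUNX2 stayed at or under 0.65 FPKM, SP7 at or under 0.04 FPKM, and IBSP was listed at 0 in all 4 libraries. All 11 pluripotency markers and all 12 early endoderm markers had a mean of at least 1 FPKM, and no leukocyte marker did. Many of these were abundant already with control siRNA. There CER1 was at 4430 and 4406 FPKM, TDGF1 at 603 and 631, LIN28A at 385 and 396, POU5F1 at 186 and 177 and SOX17 at 133 and 131. SOX2, the lowest pluripotency marker in those libraries, was at 6.68 and 6.36 FPKM. The identity of the cells was not tested, so the results below are those of cells so labelled. Several marker lists also moved with the groups. The endoderm markers summed to 5572 and 5554 FPKM with control siRNA and to 1373 and 3293 FPKM with KLF11 siRNA, and the 10 epithelial markers to 2586 and 2390 against 1189 and 1433 FPKM. Without the gene that moved most, CER1 and KRT8, those sums were still lower with KLF11 siRNA, at 1142 and 1148 against 415 and 719 FPKM and at 1621 and 1503 against 846 and 952 FPKM. The higher sums of the other lists came mainly from 1 gene each, although less abundant genes also moved. The pluripotency markers summed to 2023 and 1999 against 3131 and 2627 FPKM, but to 1837 and 1823 against 1767 and 1558 FPKM without POU5F1. Of the other 10, 6 were higher and 4 lower without overlap. NANOG went from 33.9 and 30.4 to 162 and 95.9 FPKM and SOX2 to 23.4 and 18.1 FPKM. PODXL went from 438 and 410 to 183 and 168 FPKM. Over all tested genes 28.9% were higher and 44.5% lower without overlap. The 12 mesenchymal markers summed to 438 and 409 against 1117 and 1106 FPKM, but to 293 and 277 against 308 and 307 FPKM without VIM. Of the other 11, 6 were higher and 3 lower without overlap. THY1 went from 9.95 and 7.64 to 65.3 and 68.3 FPKM, while FN1, the most abundant of these, went from 234 and 218 to 198 and 181 FPKM. The osteoblast and osteosarcoma markers summed to 924 and 884 against 1241 and 1104 FPKM, and to 922 and 881 against 994 and 1005 FPKM without SPP1, which went from 2.31 and 2.76 to 247 and 99.1 FPKM. The part of these shifts in the transporter values below was not tested, and in bulk RNA fewer cells of a type and less RNA per cell cannot be told apart.

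More transporter genes rose than fell with KLF11 siRNA. Of 26 tested members 12 rose and 3 fell at an adjusted p under 0.05, against 13.5% of all 15320 tested genes that rose, 21.7% that fell and 35.2% in either direction (limma on log2(FPKM + 1), Benjamini-Hochberg). The median log2 change was 0.47 over the tested members and -0.11 over all tested genes. The 12 that rose were SLC7A1, SLC7A7, SLC7A11, SLC7A14, SLC1A3, SLC1A4, SLC1A5, SLC38A1, SLC38A2, SLC43A1, SLC43A2 and SLC43A3, and the 3 that fell were SLC7A2, SLC36A1 and SLC38A5. Among the 12, only SLC1A4 had a control mean under 1 FPKM, at 0.245 FPKM. It was tested only because of its level with KLF11 siRNA, so its rise is not independent of the filter. The groups did not overlap for 21 members (80.8%), 17 of them upward and 4 downward, while all tested genes gave 73.4% in either direction, 28.9% upward and 44.5% downward. Median-of-ratios scaling moved the median of all tested genes from -0.11 to 0.00 and gave 15 members higher and 3 lower. With either control library left out, none of the 26 members passed limma, although 15 and 13 had an unadjusted p under 0.05 and each of the 15 called members kept its sign. Those fits called few genes of any kind, 15 higher and 4 lower in all without control replicate 1 and 9 and 2 without replicate 2. With no filter on low values, 34232 genes were tested and 4 members rose and 2 fell. The 9 members lost there, at adjusted p from 0.0501 to 0.104, were SLC1A4, SLC1A5, SLC38A1, SLC38A2, SLC38A5, SLC43A2, SLC43A3, SLC7A7 and SLC7A11.

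**Figure D1:**
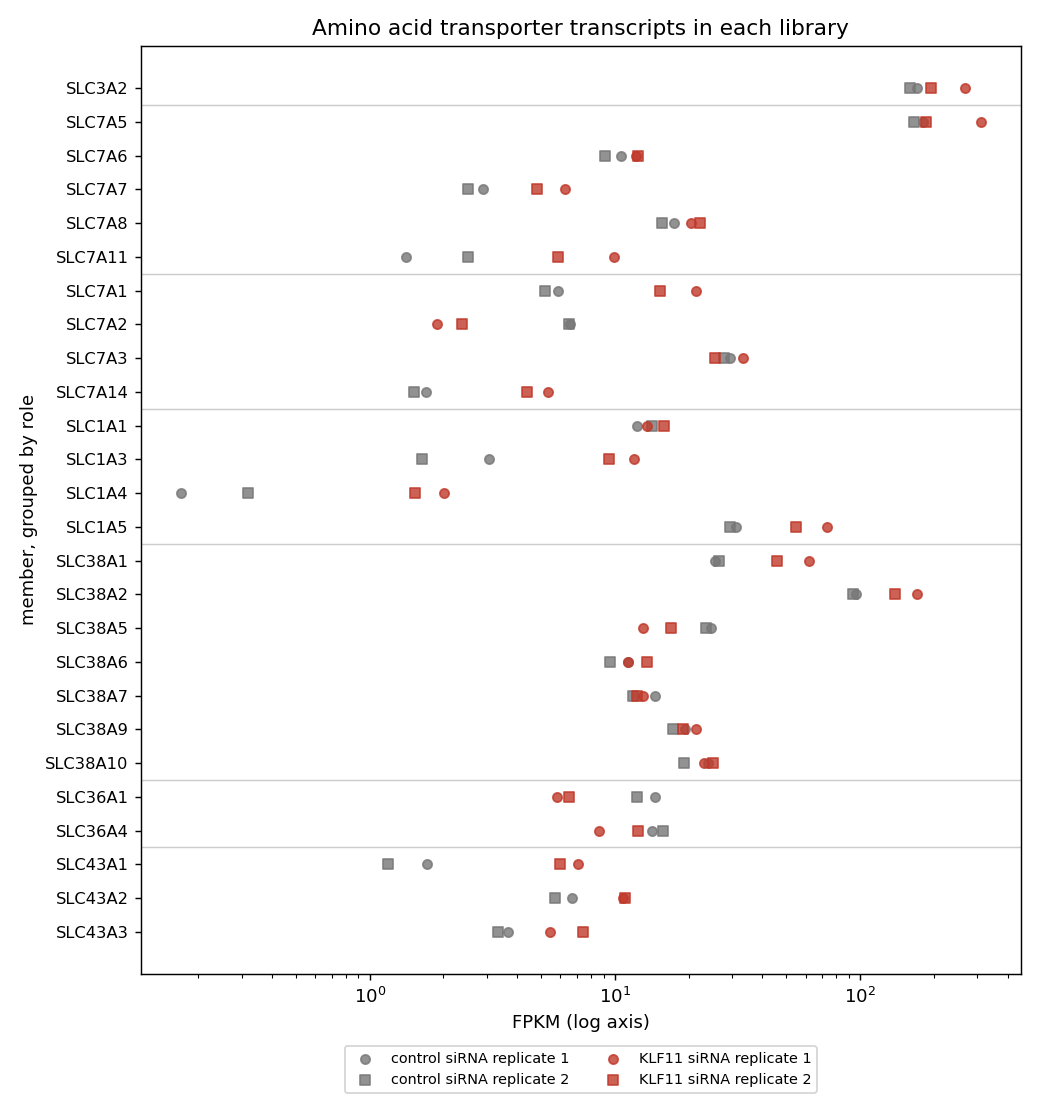
FPKM of each of the 26 tested members (log axis) in the 4 libraries, with control siRNA in grey, KLF11 siRNA in red, replicate 1 as circles and replicate 2 as squares, and lines between the roles. SLC7A5, SLC3A2 and SLC38A2 lie near or above 100 FPKM, and SLC1A4 is the lowest, at 0.17 and 0.32 FPKM in the control libraries.

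The amounts were concentrated in a few members. SLC7A5, SLC3A2, SLC38A2 and SLC1A5 together held 65.1% and 65.4% of the members' summed FPKM in the control libraries and 71.8% and 65.7% in KLF11 siRNA replicates 1 and 2. The sum over all 40 members was 735 and 687 FPKM with control siRNA and 1146 and 872 FPKM with KLF11 siRNA. For the other 36 members the sums were 257 and 238 FPKM against 323 and 299 FPKM. Both sums were higher in each KLF11 siRNA library than in either control library.

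The sequences before the start sites of 4 called members are shown because these genes moved in both directions and because KLF proteins as a family are known to bind GC-rich boxes. The windows are from RefSeq (GRCh38.p14), 250 bases that end just before an annotated start, and 31 of the 40 members matched that table by symbol. Of the tested members SLC7A11, SLC43A3, SLC7A2 and SLC7A3 had no window, so none of the motifs below was searched in them. In the first 3, capitals mark the GC box GGGCGG on either strand. In SLC1A3, capitals mark TGATGCAA, a match to the amino acid response element searched as TGATGNAA.
SLC7A1 (chr13:29595689-29595938, minus strand): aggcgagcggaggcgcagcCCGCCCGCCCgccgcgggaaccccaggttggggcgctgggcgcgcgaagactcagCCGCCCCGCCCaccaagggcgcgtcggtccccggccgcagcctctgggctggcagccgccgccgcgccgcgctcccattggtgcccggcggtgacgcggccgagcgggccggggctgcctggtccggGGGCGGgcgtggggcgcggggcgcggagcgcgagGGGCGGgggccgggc
SLC38A2 (chr12:46372774-46373023, minus strand): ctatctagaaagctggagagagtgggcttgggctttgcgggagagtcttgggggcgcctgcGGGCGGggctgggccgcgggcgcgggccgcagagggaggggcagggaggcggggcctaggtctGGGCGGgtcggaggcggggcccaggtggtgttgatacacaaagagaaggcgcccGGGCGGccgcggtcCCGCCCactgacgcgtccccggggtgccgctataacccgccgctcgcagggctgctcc
SLC38A5 (chrX:48470261-48470510, minus strand): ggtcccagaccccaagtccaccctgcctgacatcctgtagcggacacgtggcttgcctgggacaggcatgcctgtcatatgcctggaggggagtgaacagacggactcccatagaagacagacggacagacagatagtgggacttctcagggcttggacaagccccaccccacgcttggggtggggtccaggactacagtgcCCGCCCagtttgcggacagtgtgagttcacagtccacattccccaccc
SLC1A3 (chr5:36596338-36596587, plus strand): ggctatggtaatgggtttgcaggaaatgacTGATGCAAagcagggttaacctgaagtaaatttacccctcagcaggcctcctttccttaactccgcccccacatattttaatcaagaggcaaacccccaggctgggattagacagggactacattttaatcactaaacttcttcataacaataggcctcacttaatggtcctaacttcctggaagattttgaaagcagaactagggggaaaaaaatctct
SLC7A1, which rose 3.30-fold, held 6 GC boxes, some of them overlapping or adjoining, SLC38A2, which rose 1.63-fold, held 4, and SLC38A5, which fell 1.61-fold, held 1. These windows were picked for printing, and their order is not that of the other members. The window of SLC7A14, which rose 3.03-fold, held 0 boxes, and that of SLC7A5, which did not pass, held 4. Some genes have several start sites, and SLC1A3 has 3 windows, of which the one printed lies farthest upstream. A GC box stood in a window of 8 of 10 genes that rose, of both genes that fell and of 9 of 10 that did not pass, where any of a gene's windows counts. Counted by window, it stood in 30 of the members' 53 windows and in 11 of 21 windows of rising genes, against 42.6% of all 35116 windows in the table. Rising, falling and uncalled members thus all held this motif. The response element was found in windows of 2 of the 10 rising genes, SLC1A3 and SLC1A5, and in 0 of the other 20 tested members that have a window. Counted by window, it was in 2 of 21 windows of rising genes and 2 of the members' 53, against 3.14% of all windows. In SLC1A5 it lay in the window farthest downstream. The antioxidant response element TGACNNNGC was in 4 of 21 windows of rising genes, 0 of 3 of falling genes and 2 of 19 of uncalled genes, in all 6 of the members' 53 windows against 10.9% of all windows. The E-box CACGTG was in 8 of the 53 windows (6.34% of all windows), and CATTCC, the core of the MCAT element that TEAD factors bind, in 5 (11.9%). All motifs were searched on both strands, and a match is a description of letters, not a binding site.

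The heavy chain and its most abundant light chain were at high levels in every library and did not pass the test. SLC3A2 encodes the heavy chain also known as CD98. It was at 170.5 and 160 FPKM with control siRNA and at 268 and 195 FPKM with KLF11 siRNA (log2 change 0.47, SE 0.163, adjusted p = 0.077). SLC7A5, which carries leucine and other large neutral amino acids, was at 180.5 and 166 FPKM against 310 and 185 FPKM (log2 change 0.47, SE 0.244, adjusted p = 0.190). For both genes the groups did not overlap, but KLF11 siRNA replicate 1 was far above the controls and replicate 2 only slightly above them. With replicate 1 as the only KLF11 siRNA library the log2 changes were 0.70 for SLC3A2 (adjusted p = 0.00722) and 0.84 for SLC7A5 (adjusted p = 0.00526), and with replicate 2 as the only one they were 0.24 (adjusted p = 0.128) and 0.097 (adjusted p = 0.4999). In such fits the controls alone give the spread, and the single library is assumed to vary like them. Reads of SLC7A5 can be shared with its pseudogenes SLC7A5P1 and SLC7A5P2, which stood at no more than 1.05 and 1.57 FPKM in any library.

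Among the light chains SLC7A11 and SLC7A7 rose. SLC7A11 (ENSG00000151012) is the cystine and glutamate exchanger that supplies cystine for glutathione. It stood at 1.40 and 2.51 FPKM in control cells and at 9.95 and 5.87 FPKM after KLF11 siRNA (4.05-fold higher, log2 change 1.58, SE 0.303, adjusted p = 0.0168). Both KLF11 siRNA libraries were above both controls, although each pair was itself spread, and its antisense gene SLC7A11-AS1 did not exceed 0.08 FPKM. SLC7A7 (ENSG00000155465), which exchanges cationic for neutral amino acids, rose from 2.90 and 2.51 FPKM to 6.27 and 4.80 FPKM (2.05-fold, adjusted p = 0.0244), a call lost without KLF11 siRNA replicate 1 (adjusted p = 0.0588). Its relative SLC7A6 was at 10.6 and 9.16 FPKM against 12.2 and 12.5 FPKM (adjusted p = 0.115). SLC7A8, another carrier of neutral amino acids, was at 17.4 and 15.6 FPKM against 20.5 and 22.2 FPKM (adjusted p = 0.0581). SLC7A8 and SLC7A6 passed with median-of-ratios scaling (adjusted p = 0.0213 and 0.0435), as did SLC3A2 (adjusted p = 0.0449). The gene SLC7A6OS, whose name marks it as the opposite strand of SLC7A6, was at 10.6 and 10.4 FPKM against 6.52 and 7.02 FPKM, and with the strand setting not given the reads of this pair may be mixed.

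The heavy chain was also set against its light chains. The 6 light chains known to pair with SLC3A2 (SLC7A5, SLC7A6, SLC7A7, SLC7A8, SLC7A10 and SLC7A11) summed to 214 and 197 FPKM with control siRNA and to 360 and 231 FPKM with KLF11 siRNA. SLC3A2 measured 0.796 and 0.814 of that sum in the controls and 0.746 and 0.844 in the KLF11 siRNA libraries, so the control ratios lay between the others. SLC7A5 made up 84.3% of the light chain sum in both control libraries, 86.2% in KLF11 siRNA replicate 1 and 80.2% in replicate 2. The largest fold change among these light chains was in SLC7A11, whose level stayed under 10 FPKM in every library.

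The cationic carriers went in opposite directions. SLC7A1 (ENSG00000139514), the widely expressed importer of arginine and lysine whose window is printed above, rose from 5.89 and 5.21 FPKM to 21.4 and 15.3 FPKM (log2 change 1.54, SE 0.185, adjusted p = 0.00589). SLC7A2 (ENSG00000003989), a related cationic carrier, fell from 6.57 and 6.53 FPKM to 1.89 and 2.38 FPKM (3.07-fold lower, log2 change -1.27, SE 0.160, adjusted p = 0.00644). The 2 genes were at similar levels in the control libraries and well apart in the KLF11 siRNA libraries. SLC7A3, the most abundant cationic carrier in each library, was at 29.5 and 27.9 FPKM against 33.3 and 25.6 FPKM. One KLF11 siRNA library was above both controls and the other below them (adjusted p = 0.910), and the 95% interval of its log2 change ran from -0.34 to 0.39. SLC7A14, a further relative, rose from 1.69 and 1.52 FPKM to 5.36 and 4.38 FPKM (3.03-fold, adjusted p = 0.00926).

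**Figure D2:**
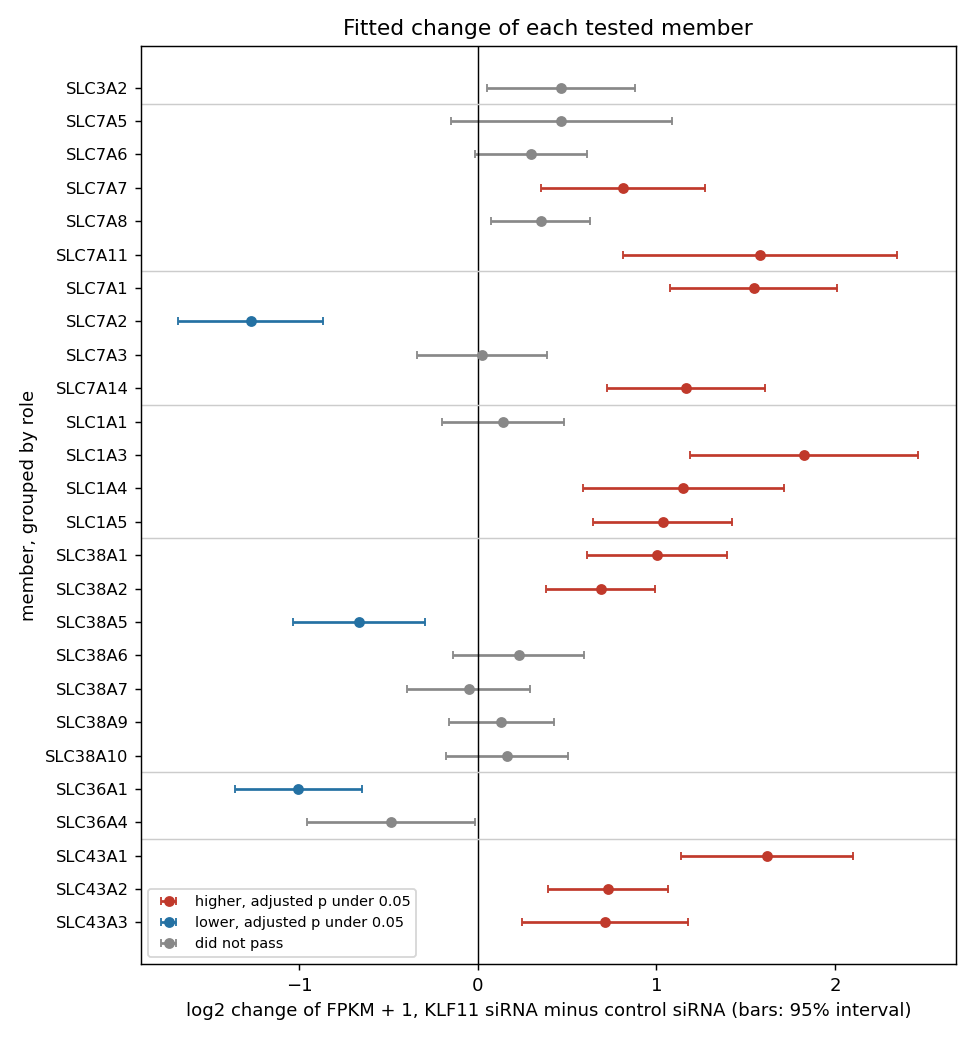
Fitted log2 change of FPKM + 1 for each tested member, KLF11 siRNA minus control siRNA, with 95% intervals from limma, red for the 12 that rose, blue for the 3 that fell and grey for the 11 that did not pass. SLC7A1 and SLC7A2 lie on opposite sides of 0, at 1.54 and -1.27.

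In the SLC1 family the carriers of neutral amino acids and a glutamate carrier rose. SLC1A5 (ENSG00000105281), a sodium-coupled exchanger that brings in glutamine, had 31.4 and 29.6 FPKM in control cells and 73.6 and 54.9 FPKM after KLF11 siRNA (2.11-fold higher, log2 change 1.04, SE 0.154, adjusted p = 0.00909). SLC1A4 (ENSG00000115902), its close relative that carries serine, alanine and cysteine, rose from 0.17 and 0.32 FPKM to 2.01 and 1.53 FPKM (7.22-fold, log2 change 1.15, adjusted p = 0.0170). The mean of SLC1A4 over the libraries was just above 1 FPKM while its control mean was 0.245 FPKM, so it was tested only because of its level with KLF11 siRNA, and it was under the filter without either of those libraries. SLC1A3 (ENSG00000079215), a sodium-coupled glutamate importer best known from glia, rose from 3.07 and 1.64 FPKM to 11.9 and 9.48 FPKM (4.55-fold, log2 change 1.83, SE 0.252, adjusted p = 0.00783). This was the largest fitted log2 change among the tested members. SLC1A1, the glutamate importer also used by neurons and epithelia, was at 12.3 and 14.1 FPKM against 13.5 and 15.9 FPKM, with overlapping groups (adjusted p = 0.452).

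The sodium-coupled SLC38 family was divided. SLC38A2 (ENSG00000134294), an importer of alanine, glutamine and other small neutral amino acids that is known to be induced by amino acid shortage, went from 96.4 and 93.6 FPKM to 171 and 138 FPKM (log2 change 0.69, SE 0.120, adjusted p = 0.0134). SLC38A1 (ENSG00000111371), with similar substrates, rose from 25.6 and 26.5 FPKM to 61.8 and 45.8 FPKM (2.07-fold, adjusted p = 0.0101). In both genes replicate 1 was the higher KLF11 siRNA library and neither overlapped the controls. SLC38A5 (ENSG00000017483), which carries glutamine and histidine in exchange for protons, fell from 24.6 and 23.6 FPKM to 13.0 and 16.9 FPKM (log2 change -0.67, SE 0.145, adjusted p = 0.0229). The other 4 tested members did not pass and had control means between 10.4 and 21.5 FPKM. SLC38A9, the lysosomal protein that reports arginine to mTORC1, was at 19.4 and 17.3 FPKM against 21.5 and 19.0 FPKM (adjusted p = 0.412). SLC38A7, a lysosomal glutamine carrier, was at 14.6 and 11.9 FPKM against 13.0 and 12.3 FPKM (adjusted p = 0.787). SLC38A6 was at 11.3 and 9.60 FPKM against 11.3 and 13.5 FPKM (adjusted p = 0.266). SLC38A10 was at 23.9 and 19.2 FPKM against 23.1 and 25.1 FPKM (adjusted p = 0.387).

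Of the proton-coupled SLC36 family 1 of 2 tested members fell, and of the facilitative SLC43 family all 3 members rose. SLC36A1 (ENSG00000123643), which exports small amino acids from lysosomes and acts in mTORC1 signalling, fell from 14.5 and 12.3 FPKM to 5.79 and 6.53 FPKM (2.18-fold lower, log2 change -1.01, SE 0.140, adjusted p = 0.00797). SLC36A4 was at 14.2 and 15.8 FPKM against 8.64 and 12.4 FPKM, without overlap, and did not pass (adjusted p = 0.0954). With 1 KLF11 siRNA library and the spread of the controls alone, its log2 change was -0.73 for replicate 1 (adjusted p = 0.0142) and -0.25 for replicate 2 (adjusted p = 0.207). SLC43A1 (ENSG00000149150), a uniporter of leucine and other large neutral amino acids, rose from 1.72 and 1.19 FPKM to 7.07 and 5.96 FPKM (4.48-fold, log2 change 1.62, SE 0.190, adjusted p = 0.0057). Its relative SLC43A2 (ENSG00000167703) rose from 6.68 and 5.69 FPKM to 10.8 and 11.0 FPKM (1.76-fold, adjusted p = 0.0145). SLC43A3 (ENSG00000134802), which despite its family name is known as a carrier of purine nucleobases, rose from 3.65 and 3.33 FPKM to 5.44 and 7.40 FPKM (1.84-fold, adjusted p = 0.0352). That call was lost without KLF11 siRNA replicate 2 (adjusted p = 0.0595).

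The 14 members under the filter were low in every library. SLC1A6, SLC7A10, SLC1A2, SLC3A1, SLC36A2, SLC38A3 and SLC38A4 had highest values of 1.49, 1.29, 0.63, 0.63, 0.63, 0.45 and 0.21 FPKM, in that order. SLC7A4, SLC7A9, SLC38A8, SLC38A11, SLC7A13 and SLC36A3 did not exceed 0.11 FPKM, and SLC1A7 was listed at 0 in all 4 libraries. Just outside the limit of 1 FPKM, SLC1A6 had a mean of 0.95 FPKM with overlapping groups and SLC7A10, a carrier of small neutral amino acids, a mean of 0.893 FPKM, which was 1.29 and 1.21 FPKM in control cells and 0.57 and 0.50 FPKM after KLF11 siRNA. Just inside it, SLC1A4 was followed by SLC7A14. SLC3A1 is the heavy chain for SLC7A9 and SLC7A13, so the light chains of that pairing were near 0 while the heavy chain did not exceed 0.63 FPKM.

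The KLF11 siRNA libraries differed from each other in how far the members had moved. Of the 15 members that passed, 13 were farther from the control mean in replicate 1 than in replicate 2, and the exceptions were SLC43A2 and SLC43A3. Of all 26 tested members 18 were farther in replicate 1. The share over all tested genes was not counted, so whether this is particular to the transporters is not known. SLC7A11 was 1.92 above the control mean in replicate 1 and 1.24 above it in replicate 2, on the log2(FPKM + 1) scale. SLC7A5 was 0.84 above it in replicate 1 and 0.10 in replicate 2. Replicate 1 also had the lower KLF11 level, 5.49 against 6.74 FPKM, and the lower sum of endoderm markers, 1373 against 3293 FPKM. Whether these go together was not tested.

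**Figure D3:**
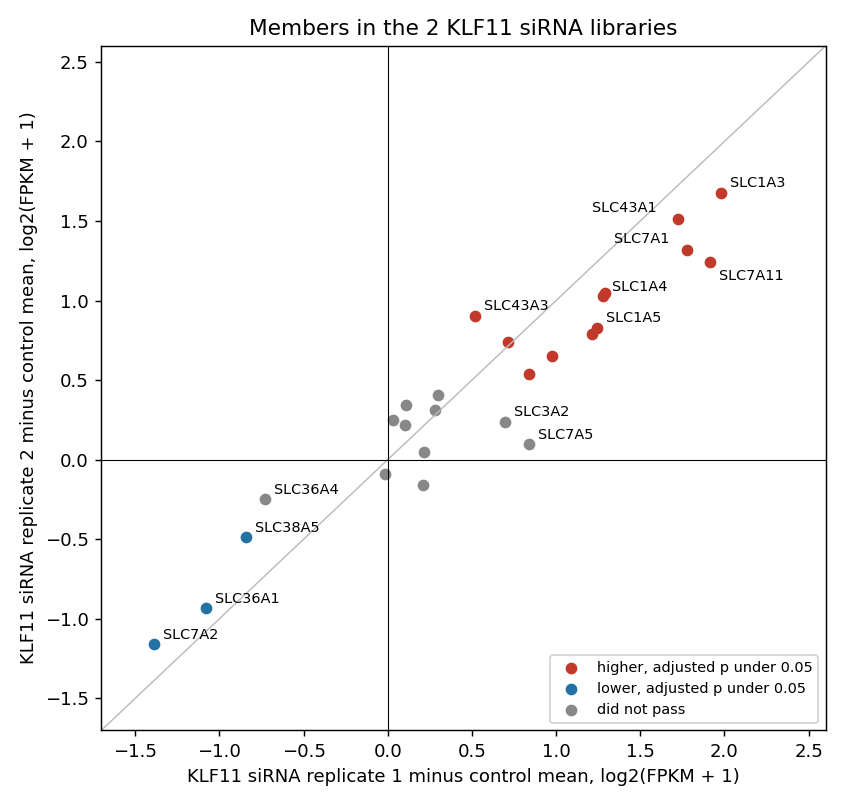
Distance of each tested member from the control mean on the log2(FPKM + 1) scale, KLF11 siRNA replicate 1 on the horizontal axis and replicate 2 on the vertical axis, with a grey line where both are equal and the same colours for members that rose, fell or did not pass. SLC7A5 and SLC3A2 lie well below the line on the right, and SLC43A3 lies above it.

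Other genes of amino acid supply were read from 6 lists written out by name, with the same fit, and with either control library left out none of their genes passed. Their counts are to be read against the 13.5% of all tested genes that rose and the 21.7% that fell. With no filter on low values ATF5, TRIB3, RRAGD, SESN1, CHAC2, GCLM, SLC6A15, BCAT2, MCCC1 and PPM1K did not pass (adjusted p from 0.0562 to 0.116). In the amino acid response list 5 of 18 tested genes rose (27.8%), or 3 of 19 with no filter, and the median log2 change was 0.00. ATF4 itself rose from 187 and 178 FPKM to 281 and 260 FPKM (1.49-fold, adjusted p = 0.00961). ASNS, the asparagine synthetase and a classic ATF4 target, rose from 13.3 and 15.2 FPKM to 89.2 and 58.3 FPKM (5.17-fold, adjusted p = 0.00392). CHAC1, which degrades glutathione, rose 5.26-fold, the ATF4 relative ATF5 2.38-fold and the pseudokinase TRIB3 2.98-fold. TRIB3 had a control mean of 0.83 FPKM, so it was tested only because of its level with KLF11 siRNA, and it did not pass without KLF11 siRNA replicate 1 (adjusted p = 0.0623). The other 13 genes did not pass in the main fit, and with TPM scaling 2 of them were called lower. With median-of-ratios scaling the list held 6 rises and 0 falls, and with quantile normalization 7 and 0.

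Of 14 tested amino acid transporters of other families 1 rose and 2 fell (7.14% and 14.3%), both shares under those of all tested genes. SLC6A15, a sodium-coupled carrier of neutral amino acids, rose 4.42-fold (adjusted p = 0.0297). A pair of mitochondrial carriers fell. SLC25A13, which exchanges aspartate for glutamate, went from 96.0 and 97.0 FPKM to 50.1 and 51.1 FPKM (adjusted p = 0.00335), and SLC25A29, which carries basic amino acids, from 143 and 116 FPKM to 42.6 and 56.7 FPKM (adjusted p = 0.00649).

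The mTORC1 sensing list holds amino acid sensors and also MTOR, RPTOR, TSC1, TSC2 and RHEB, which are not such sensors. It gave 3 rises and 6 falls among 31 tested genes (9.68% and 19.4%), with a median log2 change of -0.13. Both shares were near or under those of all tested genes. RHEB, the small GTPase that activates mTORC1, rose from 65.8 and 65.3 FPKM to 108 and 101 FPKM, RRAGD, a Rag GTPase, 2.40-fold and SESN1, a sestrin, 2.12-fold. RRAGB, another Rag GTPase, fell from 14.1 and 13.8 FPKM to 7.08 and 6.25 FPKM, and LAMTOR2, a subunit of the Ragulator scaffold on lysosomes, from 70.2 and 63.1 FPKM to 27.4 and 35.1 FPKM. Under median-of-ratios scaling the list held 4 rises and 3 falls.

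Genes that use the imported amino acids moved both ways. In the list of cystine use and glutathione 3 of 14 tested genes rose and 6 fell (21.4% and 42.9%), or 1 and 2 of 16 with no filter. GCLM, a subunit of the enzyme that starts glutathione synthesis, rose 1.62-fold (adjusted p = 0.0336, and 0.0939 without KLF11 siRNA replicate 1) and CHAC2, a relative of CHAC1, 1.98-fold. NFE2L2, the transcription factor NRF2 of which SLC7A11 is a known target, fell from 51.2 and 54.4 FPKM to 31.9 and 35.9 FPKM (adjusted p = 0.0106). GGT1, which splits extracellular glutathione, fell 2.54-fold. Among glutamine, glutamate and proline enzymes 8 of 17 tested genes rose and 2 fell (47.1% and 11.8%), or 4 and 2 of 20 with no filter. PSAT1, the transaminase that uses glutamate in serine synthesis, rose from 36.2 and 37.0 FPKM to 176 and 127 FPKM (adjusted p = 0.00324), GFPT2, which uses glutamine for hexosamines, 3.62-fold and GLUD1, glutamate dehydrogenase, 2.14-fold. GLUL, glutamine synthetase, fell from 216 and 190 FPKM to 109 and 84.0 FPKM (adjusted p = 0.00797) and PRODH, proline dehydrogenase, 3.19-fold.

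Branched-chain amino acids share carriers such as SLC7A5 and SLC43A1, and of 12 tested genes of their breakdown 2 rose and 3 fell (16.7% and 25.0%), shares near those of all tested genes, and with no filter the 3 falls were lost. BCAT1, the cytosolic transaminase, rose from 48.9 and 48.3 FPKM to 105 and 81.6 FPKM (adjusted p = 0.00892), whereas BCAT2, its mitochondrial counterpart, fell from 24.2 and 22.4 FPKM to 6.67 and 11.95 FPKM (adjusted p = 0.0184). ACADSB, a mitochondrial dehydrogenase of this route, rose 2.38-fold. MCCC1, a subunit of the leucine-pathway carboxylase, fell 1.89-fold and PPM1K, the phosphatase that activates the branched-chain dehydrogenase, 1.41-fold. The fall of PPM1K did not pass with median-of-ratios scaling (adjusted p = 0.127) or without either KLF11 siRNA library (adjusted p = 0.0579 and 0.0995).

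**Figure D4:**
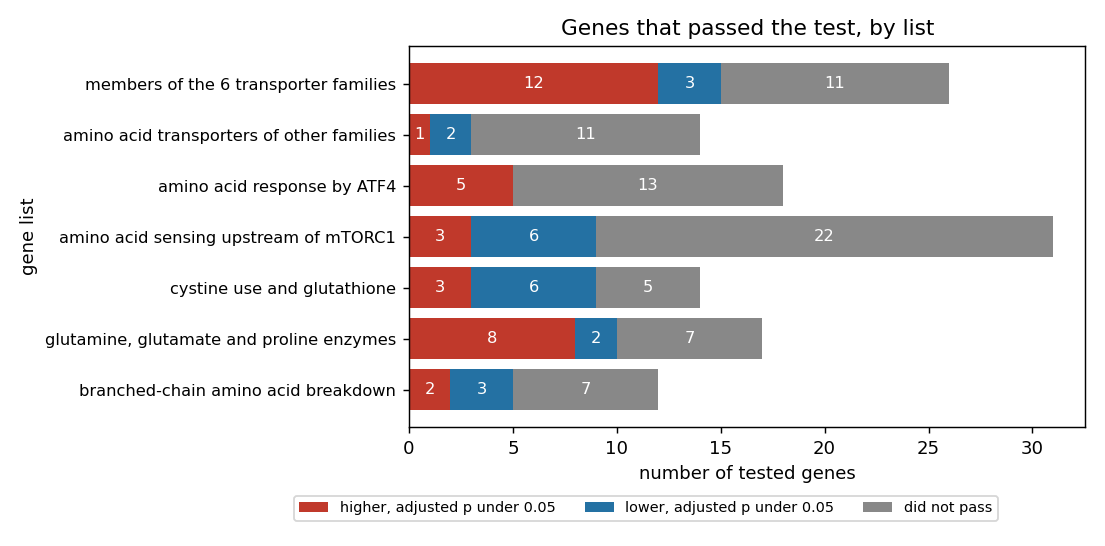
Number of tested genes that rose (red), fell (blue) or did not pass (grey) with KLF11 siRNA, for the transporter members and the 6 other lists, some of which share genes such as ASNS and CHAC1. The members show 12 rises and 3 falls of 26, and the mTORC1 sensing list 3 rises and 6 falls of 31.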

How the data were processed

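The authors deposited 1 table of FPKM values with 2 decimals. The tools named are Trim Galore 0.5.0 and RSEM 1.3.1, and the build is hg19 (GRCh37), per the submitters' processing notes. Not given in the sources used here were the aligner, annotation release, strand setting and filters. FPKM hides read depth, and a few abundant genes that change can shift all others. RSEM divides shared reads among similar transcripts. Columns were matched to samples by title, with 0 left over.

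Replicates correlated at 0.982 (control) and 0.976 (KLF11 siRNA) across genes on log2(FPKM + 1), and 0.894 to 0.930 between groups. Genes with a mean of at least 1 FPKM were fitted with limma 3.58.1 (R 4.3.3; lmFit, eBayes with trend) on log2(FPKM + 1), with a threshold of 0.05 after Benjamini-Hochberg adjustment over 15320 genes. This scale understates changes of low genes. Folds are ratios of mean FPKM, and values are given in replicate order. An exact permutation test of 2 against 2 cannot go below 0.333 and was not used. The fit was also run on simulated data with few changed genes, as many up as down. In the present data 35.2% of tested genes were called, so that run says nothing about the calls here.

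Members and lists were chosen with earlier results of these data known. All tested members are named, and of each other list all genes called in a direction where 5 or fewer, otherwise those among the list's 4 smallest p. Promoter windows came from RefSeq tables of GRCh38.p14, not the authors' build, so no other coordinates are given. Alternatives were pseudocounts, filters, scalings, variance models (statmod 1.5.0), a replicate block, left-out libraries and call rules. Figures used matplotlib 3.10.9.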

Additional observations from a re-analysis of the deposited data

How the results depend on the processing

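The counts of 12 members higher and 3 lower were the same with pseudocounts of 0.1 and 5, TPM scaling, no variance trend and robust variance estimation, and the 15 called members were shared. Median-of-ratios scaling gave 15 higher and quantile normalization 14, with all 15 shared. Without a filter on FPKM, 34232 genes were tested and 4 members were higher and 2 lower. A filter at a mean of 5 FPKM left 19 members, of which 6 were higher and 2 lower, and the 7 lost members were not tested there. Leaving out 1 library at a time gave 0 to 12 members higher and 0 to 4 lower, with 0 in both directions without control siRNA replicate 1 or 2, where 15 and 13 members had an unadjusted p under 0.05. Without KLF11 siRNA replicate 1 the counts were 10 and 3, and without replicate 2 they were 12 and 4. An adjusted p of 0.1 gave 14 and 4, and a minimum log2 change of 1 gave 8 and 2. Signs turned only in members that never passed. The log2 change of SLC7A3 was -0.018 with TPM scaling and ran from -0.16 to 0.208 with 1 library left out. That of SLC38A7 was 0.0703 with median-of-ratios scaling and 0.0765 with quantile normalization, and ran from -0.190 to 0.0859 with 1 library left out. In the mTORC1 sensing list 3 genes rose and 4 fell without a variance trend, and 1 and 2 without the filter. In the glutathione list 3 rose and 3 fell without a variance trend.

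With the replicate number as a block, 12 members were higher and 3 lower: SLC43A3 was lost (adjusted p = 0.0582) and SLC3A2 passed (adjusted p = 0.0463). Deviations of same-numbered libraries correlated at -0.0711 across genes, so the numbers were not taken to pair the samples. Without counts, depth sets no stated limit here, and differences among members near 0 FPKM could not be judged.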
